A study of Mus musculus with 10 samples.

Results

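The CD300 genes encode a family of immunoglobulin-like receptors of myeloid cells, and 9 of them, Cd300a, Cd300c, Cd300c2, Cd300e, Cd300lb, Cd300ld, Cd300ld4, Cd300lf and Cd300lg, were followed in mouse spleen. They were selected by gene symbol among the 54532 genes of the expression table, which holds 12 genes of that name. Of the other 3, Cd300ld3 and Cd300ld5 are close copies of Cd300ld4 and Cd300ld2 is a more distant neighbour, and all are given beside it. The family was picked on the difference of Cd300ld4 between the genotypes in these same spleens, so the differences of the members are a description, and counts of members past a threshold are given for reference only. RNA was sequenced from the spleens of 5 DUSP6 KO mice and 5 wild-type (WT) mice, 1 library per mouse. The DUSP6 KO mice carry the Dusp6tm1Jmol allele, a germline deletion present in all cells that the sample labels call a knockdown, and the WT mice were C57BL/6J. Both lines were purchased, and the labels do not say whether the mice were littermates. All 10 mice, at 8 to 12 weeks of age, had KRN serum-induced arthritis (KSIA), a joint disease passed on by the antibodies of arthritic mice. Each received 100 µL of serum on days 0 and 2, and spleens were taken on day 9, so no spleen without serum is part of the comparison. Levels are FPKM, fragment counts scaled to gene length and library depth, as the authors computed them.

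The receptors of this family share an extracellular immunoglobulin fold and differ in what lies behind it. Inhibitory members carry tyrosine motifs in the cytoplasmic tail that recruit the phosphatases SHP-1 and SHP-2. Activating members have short tails and signal through adaptors such as DAP12 and the Fc receptor gamma chain. Several members bind lipids that dying cells expose, and in the spleen they are found mainly on macrophages, monocytes, dendritic cells and granulocytes. Dusp6 encodes a phosphatase that inactivates the kinases ERK1 and ERK2.

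Depth was 14990474 to 19822673 reads for the DUSP6 KO libraries, and 15611652 to 18422147 reads for those of WT. Dusp6 ranged from 0.308 to 0.624 FPKM in DUSP6 KO, against 16.6 to 24.0 FPKM in WT, a log2 difference of -5.19 (SE 0.16, limma adjusted p = 1.33e-07). WT replicate 67 stood apart, since its 7 markers of exocrine pancreas summed to 15373 FPKM, against 194 FPKM in WT replicate 65 and 9.55 to 26.2 FPKM in the other 8 libraries. Differences of all 9 members without WT replicate 67 are therefore given with the levels. Xist was at most 0.0206 FPKM and Ddx3y at least 14.4 FPKM in every library.

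Cd300ld4 had the largest difference between the groups of the 9 members, and with Cd300c it was among the least abundant. The gene (ENSMUSG00000069609) lies on the minus strand of chromosome 11 at 115020728 to 115027012 (GRCm38), in a tandem array with Cd300ld2 (115010335 to 115016193), Cd300ld5 (115031486 to 115037769) and Cd300ld3 (115042131 to 115048409). The transcripts of Cd300ld4, Cd300ld5 and Cd300ld3 are all 852 bases long. Counted from 1 at the 5′ end of the transcript, Cd300ld4 and Cd300ld5 differ by a lone substitution, G561A, in exon 3 and within the coding sequence, so that they are 99.9% identical. Cd300ld4 and Cd300ld3 differ at 10 positions (98.8% identical), namely position 561 and 9 positions from 22 to 144 in exon 1. The stretch around position 561, shown here in capitals, is the sequence on which telling Cd300ld4 from its nearest copy rests. It lies at chr11:115022741-115022821 for Cd300ld4, at chr11:115033499-115033579 for Cd300ld5 and at chr11:115044144-115044224 for Cd300ld3, and is written 5′ to 3′ on the minus strand.
Cd300ld4: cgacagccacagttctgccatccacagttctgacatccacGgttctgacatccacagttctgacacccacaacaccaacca
Cd300ld5: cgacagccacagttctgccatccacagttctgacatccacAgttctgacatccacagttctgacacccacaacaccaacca
Cd300ld3: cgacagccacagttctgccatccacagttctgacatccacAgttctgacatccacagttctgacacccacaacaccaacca
The letters agttctg recur every 15 bases in this stretch, 4 times in Cd300ld5 and Cd300ld3 and 3 times in Cd300ld4, where the capital G interrupts a copy.

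The shared sequence limits how far a read can be given to one copy. Of all windows of 50, 100 and 150 bases in the Cd300ld4 transcript, 6.23%, 13.3% and 21.3% occur in no other Cd300 gene. For Cd300ld3 these shares are 17.9%, 19.1% and 20.5%, and for Cd300ld5 they are 0% at every length. Within its exons, a fragment particular to Cd300ld5 would have to span at least 418 bases of transcript, from a position that differs from Cd300ld3 to position 561. Cd300ld2 is more distant, with 69.9% of its windows of 50 bases found nowhere else in the family. Outside the array the problem was small, since at least 92.6% of the windows of 50 bases and 100% of those of 150 bases were particular to each of the other 8 members. How the counting treated reads that fit several genes is not given in the sources used here.

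**Figure D1:**
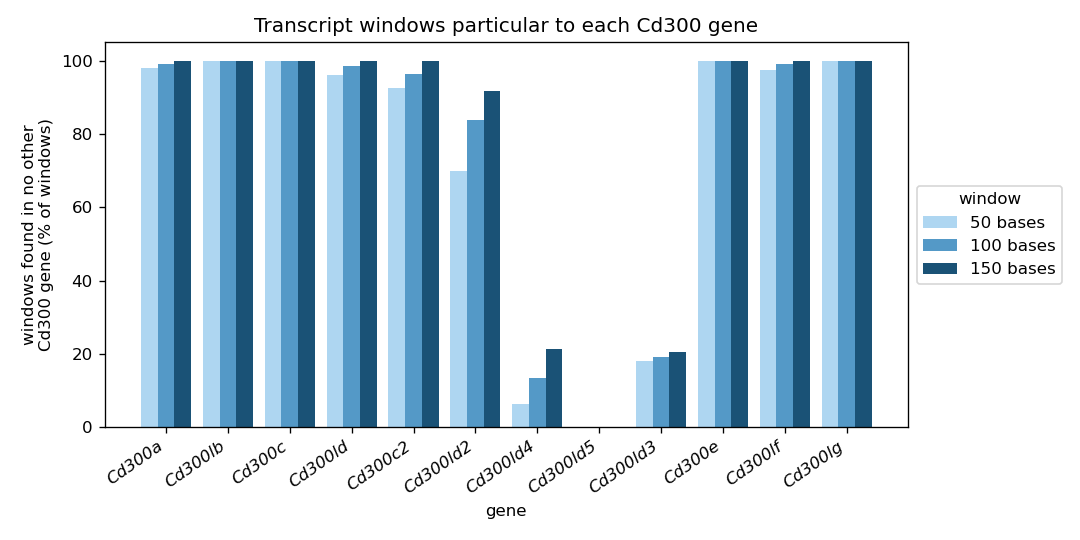
Share of all windows of 50, 100 and 150 bases along the exons of each Cd300 gene (y axis, %) that occur in no other Cd300 gene, by gene (x axis, in chromosomal order with Cd300lg last). Bars are tall for 8 members and for Cd300ld2, and reach 21.3% for Cd300ld4, 20.5% for Cd300ld3 and 0% for Cd300ld5.

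The levels of Cd300ld4 in DUSP6 KO replicates 26, 21, 73, 01 and 03 were 2.45, 3.14, 2.16, 0.379 and 1.06 FPKM. In WT replicates 65, 67, 73, 77 and 83 it was at 0, 0, 0, 0.141 and 0.458 FPKM. Thus 4 of the 5 DUSP6 KO spleens exceeded all WT spleens, and the groups overlapped because DUSP6 KO replicate 01 was below WT replicate 83. These levels rest on 39, 52, 27, 7 and 15 reads in DUSP6 KO and on 0, 0, 0, 2 and 7 reads in WT. A count of 0 allows up to 3 reads, which is 0.226, 0.191 and 0.215 FPKM in WT replicates 65, 67 and 73 (counting error only). The group means (± SD, n = 5 each) were 1.84 ± 1.11 FPKM for DUSP6 KO against 0.120 ± 0.199 FPKM for WT, a ratio of 15.3. On the log2(FPKM + 0.1) scale, which understates differences of low genes, Cd300ld4 was higher by 3.25 (SE 0.64). With 0.01 or 1 added in place of 0.1, the difference was 5.31 or 1.25. Without WT replicate 67 it was 3.06, and over all 10 libraries left out in turn it lay between 2.99 and 3.68.

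Cd300ld5 and Cd300ld3 also had higher mean levels in DUSP6 KO, and both were highest in replicate 73 while Cd300ld4 was highest in replicate 21. Cd300ld3 was at 0.440, 1.03, 5.61, 0.271 and 0.425 FPKM in DUSP6 KO (in the order above), and in WT at 0.343, 0.246, 0.340, 0.282 and 0.524 FPKM. Its high level was that of DUSP6 KO replicate 73 (70 reads), while the other 4 DUSP6 KO libraries held 5 to 17 reads and the WT libraries 4 to 8. Cd300ld5 had 7, 14, 16, 1 and 5 reads in DUSP6 KO and 5, 0, 3, 1 and 0 in WT. By FPKM it was above every WT level in the same 4 DUSP6 KO spleens as Cd300ld4, all but replicate 01. As 0% of the windows of Cd300ld5 were particular to it, its reads can hardly be told from those of its copies. Its likeness to Cd300ld4 is therefore not a separate observation. Cd300ld2 had no read in DUSP6 KO and 2 reads in WT, under the limit of 3. The log2 differences were 1.55 (SE 0.63) for Cd300ld5 and 1.08 (SE 0.65) for Cd300ld3.

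Since the copies can exchange reads, their reads were also summed. The 4 genes together had 53, 83, 113, 13 and 26 reads in DUSP6 KO and 11, 4, 8, 8 and 15 reads in WT, or 57.6 ± 41.0 and 9.2 ± 4.09 reads (SD, n = 5 each). The summed level was higher in DUSP6 KO by 2.17 (SE 0.58) on the log2 scale, and by 1.77 to 2.65 with each library left out. As with Cd300ld4 alone, 4 DUSP6 KO spleens lay above every WT spleen, and replicate 01 with 13 reads lay below WT replicate 83 with 15. By summed FPKM, which allows for depth, DUSP6 KO replicate 01 lay below WT replicate 65 as well. Within the reads of Cd300ld3, Cd300ld4 and Cd300ld5, Cd300ld4 took 23.9% to 73.6% in DUSP6 KO and 0% to 46.7% in WT. The share was lowest among the DUSP6 KO spleens in replicate 73, the library with the most reads of the array.

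**Figure D2:**
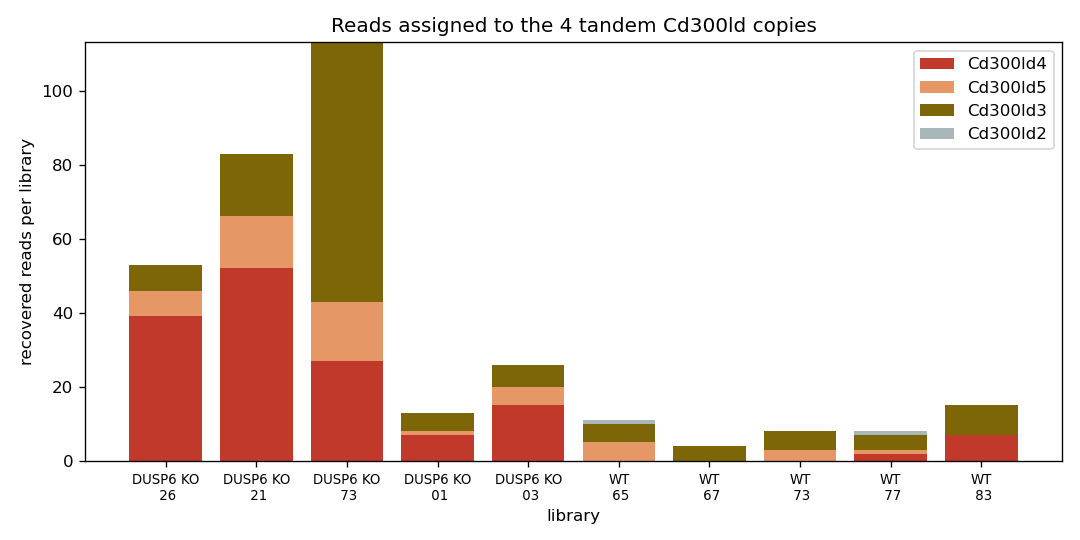
Reads assigned to Cd300ld4, Cd300ld5, Cd300ld3 and Cd300ld2 (stacked bars, recovered reads per library) in each of the 10 libraries (x axis, genotype and replicate). The stacks reach 13 to 113 reads in DUSP6 KO against 4 to 15 for WT, and Cd300ld3 makes up most of the stack of DUSP6 KO replicate 73.

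The sequence before the start of the gene was compared as well. Cd300ld4 and these copies had differences of the same sign, but their reads cannot be fully told apart. Any part of the sequence before the start in these differences was not tested. The window from 250 bases before to 50 bases after the RefSeq start (GRCm38.p6) was identical in all its bases between Cd300ld4 and Cd300ld5. The part of it that lies before the annotated exons is shown for Cd300ld4 (chr11:115027013-115027183), for Cd300ld3 (chr11:115048410-115048580) and for Cd300ld (chr11:114989923-114990136), a member whose difference had the opposite sign. All are written 5′ to 3′ on the minus strand, with aligned bases that differ from Cd300ld4 in capitals. The first 43 bases of Cd300ld and 1 later base have no counterpart in the Cd300ld4 stretch and stand in lower case.
Cd300ld4: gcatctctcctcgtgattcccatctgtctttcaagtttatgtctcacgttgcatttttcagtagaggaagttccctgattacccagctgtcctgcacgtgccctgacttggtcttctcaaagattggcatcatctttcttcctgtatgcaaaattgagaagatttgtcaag
Cd300ld3: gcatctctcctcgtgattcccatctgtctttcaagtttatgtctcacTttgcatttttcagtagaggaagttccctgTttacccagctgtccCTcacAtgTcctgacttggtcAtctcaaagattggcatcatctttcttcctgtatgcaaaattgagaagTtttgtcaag
Cd300ld: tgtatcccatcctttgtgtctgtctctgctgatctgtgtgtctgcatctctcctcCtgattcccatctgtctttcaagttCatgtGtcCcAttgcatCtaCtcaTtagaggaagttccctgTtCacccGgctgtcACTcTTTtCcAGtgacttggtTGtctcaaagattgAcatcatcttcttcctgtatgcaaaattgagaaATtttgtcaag
Cd300ld3 differed from Cd300ld4 at 8 of 171 bases, and Cd300ld at 25 of 170 aligned bases (85.3% identical). All of these windows hold the letters GAGGAAGT, a core of the sites of the myeloid factor PU.1, at position -187 in Cd300ld3, Cd300ld4 and Cd300ld5 and at -143 in Cd300ld. Searched on both strands, these letters are in 3.2% of the 32851 RefSeq windows of that length, and in 3 of the 8 members with such a window (Cd300ld, Cd300ld4 and Cd300lf). The C/EBP letters TTGCNNAA are in 10.8% of all windows and among the members in that of Cd300a. The interferon response core searched, GAAA repeated after any 2 bases, is in 3.44% of all windows and among the members in those of Cd300c and Cd300c2. The AP-1 letters TGANTCA are in 7.81% of all windows and in 0 of the 8. Such matches describe the letters and not bound sites.

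Cd300a and Cd300lf, the inhibitory receptors of the family, were at nearly equal levels in the groups. Cd300a (chromosome 11, 114890041 to 114904654), which binds phosphatidylserine and phosphatidylethanolamine, was at 14.4, 21.15, 20.99, 11.95 and 14.6 FPKM in DUSP6 KO. In WT it was at 16.8, 16.2, 15.1, 12.7 and 14.5 FPKM. DUSP6 KO replicates 21 and 73 were above all WT spleens and replicate 01 was below them, so the DUSP6 KO values enclosed the WT values. The difference was 0.11 (SE 0.16) on the log2 scale, and 0.14 without WT replicate 67. Cd300lf (chromosome 11, 115116214 to 115133992), a lipid receptor that also serves as the entry receptor of murine norovirus, was at 5.38, 7.84, 4.92, 4.35 and 5.54 FPKM in DUSP6 KO. Its WT levels were 6.54, 6.76, 6.78, 5.17 and 4.75 FPKM, a log2 difference of -0.11 (SE 0.17), or -0.06 without WT replicate 67. It lies within the span of Rab37 but shares no exon base with it.

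Among the activating receptors, Cd300ld and Cd300lb differed in opposite directions, and Cd300c2 and Cd300e differed by less than their standard errors. Cd300ld (chromosome 11, 114982274 to 114989922), which pairs with the Fc receptor gamma chain, was at 3.99, 7.18, 6.40, 5.51 and 4.54 FPKM in DUSP6 KO. It was at 7.54, 7.68, 8.02, 5.89 and 8.54 FPKM in WT, so that 4 WT spleens were above every DUSP6 KO spleen and WT replicate 77 fell among them. The means were 5.52 ± 1.31 and 7.54 ± 0.998 FPKM (SD, n = 5 each), and the log2 difference was -0.46 (SE 0.17). It was -0.45 without WT replicate 67 and lay between -0.56 and -0.36 with each library left out.

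Cd300lb (chromosome 11, 114922781 to 114934386) is coupled to DAP12. It was at 4.61, 8.11, 5.57, 4.65 and 3.72 FPKM in DUSP6 KO, against 3.27, 5.06, 4.15, 3.67 and 3.86 FPKM in WT. Replicates 21 and 73 of DUSP6 KO were above all WT spleens, and the other 3 lay within the WT range. The log2 difference was 0.37 (SE 0.20), with 0.21 without DUSP6 KO replicate 21 and 0.46 without WT replicate 67.

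Cd300c2 (chromosome 11, 114996721 to 115001880), which signals through DAP12 and the Fc receptor gamma chain, was the most abundant member. Its levels were 25.3, 28.5, 23.9, 16.7 and 25.6 FPKM in DUSP6 KO and 20.1, 28.5, 24.0, 18.5 and 23.8 FPKM in WT. The log2 difference of 0.06 (SE 0.16) turned to -0.02 without WT replicate 77 and was 0.14 without WT replicate 67. Cd300e (chromosome 11, 115051917 to 115062177), a DAP12-coupled receptor of monocytes, was at 12.1, 13.03, 15.5, 7.07 and 7.28 FPKM in DUSP6 KO. In WT it was at 7.48, 10.8, 9.69, 10.6 and 10.02 FPKM, so the DUSP6 KO spleens were either above or below all 5 WT spleens. Its log2 difference was 0.12 (SE 0.22), with -0.02 without DUSP6 KO replicate 73 and 0.16 without WT replicate 67. The coefficient of variation of Cd300e was 33.7% in DUSP6 KO and 13.6% in WT. Cd300c (chromosome 11, 114956116 to 114969157) was at 1.19 to 2.31 FPKM in DUSP6 KO, against 0.960 to 2.95 FPKM in WT, on 17 to 60 reads per library. The WT range enclosed that of DUSP6 KO, and the log2 difference was -0.15 (SE 0.29), or 0.02 without WT replicate 67.

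Cd300lg is the member that lies elsewhere, at 102041509 to 102055620 of chromosome 11, and encodes a mucin-like receptor of endothelial cells. It was at 4.797, 6.77, 3.59, 4.77 and 5.97 FPKM in DUSP6 KO, against 5.96, 9.32, 5.95, 5.19 and 6.79 FPKM in WT. WT replicates 67 and 83 were above all DUSP6 KO spleens, and 3 DUSP6 KO spleens were below all WT spleens. The log2 difference was -0.36 (SE 0.19), and -0.23 without WT replicate 67. Of the 10 endothelial markers, 7 had a log2 difference above 0, and the median was 0.12. Their sums were 230 to 320 FPKM in DUSP6 KO against 209 to 302 FPKM in WT, and their part in the difference of Cd300lg was not tested.

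**Figure D3:**
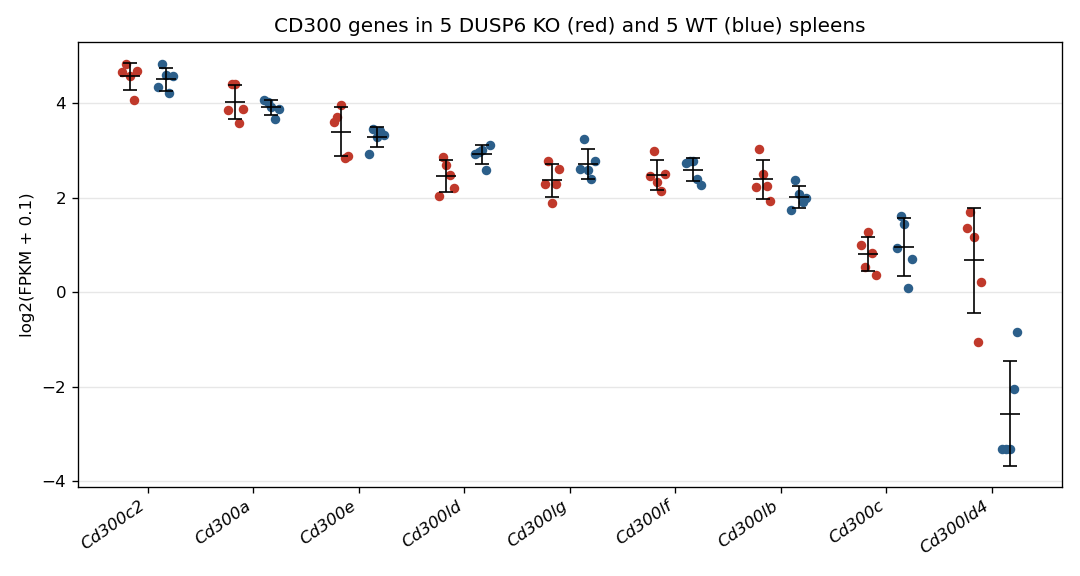
Level of the 9 CD300 family members as log2(FPKM + 0.1) (y axis) in 5 DUSP6 KO (red) and 5 WT (blue) spleens, in order of mean level, with group mean and SD as bars. The groups overlap for all 9 members, and the 3 lowest WT points of Cd300ld4 are libraries with no read.

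Of the 9 members, all passed the filter of a mean of 0.1 FPKM and 0 had a limma adjusted p of 0.05 or less, a call made for 15 of 21296 genes (0.0704%). At an unadjusted limma p under 0.05, Cd300ld4 was higher in DUSP6 KO, a call made for 2.62% of all genes, and Cd300ld was lower, a call made for 3.03%. Limma voom on recovered reads also called 0 members after adjustment and Cd300ld4 and Cd300ld before it. The study's own count test, by contrast, listed Cd300ld4 as significantly higher in DUSP6 KO after adjustment. The groups overlapped for all 9 members, while 0.549% of all genes were higher and 0.563% lower in DUSP6 KO without overlap. The contrast is that on which the family was picked, so nothing is read from these counts. The log2 difference was above 0 for 5 members, and its size was under 0.5 for all but Cd300ld4. The median over the members was 0.06 and that over all genes tested was -0.005. Summed over the members, the level (± SD, n = 5 each) was 76.8 ± 15.2 FPKM for DUSP6 KO against 74.0 ± 9.07 FPKM for WT. In RNA of whole spleen, fewer cells of a type and less RNA per cell cannot be told apart.

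**Figure D4:**
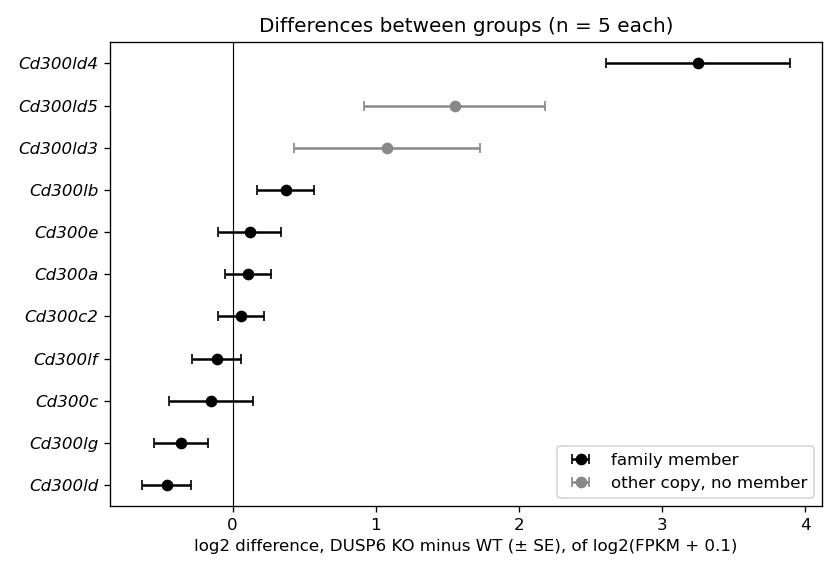
Log2 difference, DUSP6 KO minus WT, of log2(FPKM + 0.1) with its SE (x axis) for the 9 members (black) and 2 further copies of Cd300ld4 (grey). Cd300ld4 lies at 3.25, Cd300ld5 at 1.55 and Cd300ld3 at 1.08, and the other 8 members lie between -0.46 and 0.37.

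By level per length over all 10 libraries, the order was Cd300c2 (mean 23.5 FPKM), Cd300a (15.8), Cd300e (10.4), Cd300ld (6.53), Cd300lg (5.91), Cd300lf (5.80), Cd300lb (4.67), Cd300c (1.83) and Cd300ld4 (0.98). Cd300c2 made up 31.3% of the summed level in DUSP6 KO and 31.1% in WT, and Cd300ld4 made up 2.39% and 0.162%. By mean level Cd300ld4 was above Cd300c in DUSP6 KO (1.84 and 1.69 FPKM) and below it in WT (0.120 and 1.97 FPKM). The order in DUSP6 KO came from replicates 26 and 21, while Cd300c was above Cd300ld4 in replicates 73, 01 and 03. Cd300c2 was above Cd300a, and Cd300a above Cd300e, in 10 of 10 libraries. Cd300e was above Cd300ld in 9 libraries. Among Cd300ld, Cd300lg and Cd300lf the order varied between libraries, as Cd300ld was above Cd300lg in 7 libraries and Cd300lg above Cd300lf in 5. Cd300ld was above Cd300lf in every WT spleen but not in every DUSP6 KO spleen. Cd300lf was above Cd300lb in 7 libraries, every WT spleen among them. Cd300lb was above Cd300c in all 10, and Cd300c was above Cd300ld4 in 8.

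Among spleens of the same genotype, the members tended to be high and low together. For the deviations of log2 values from the group means, Pearson's r over the 10 libraries was above 0 in 32 of 36 pairs of members, with a median of 0.34 and a range of -0.34 to 0.68. The highest r was that of Cd300lb with Cd300ld (0.68). Their group differences had opposite signs, as did those of other pairs of members. Cd300a had an r of 0.67 with Cd300ld and of 0.63 with Cd300lb and Cd300lf. Cd300ld4 stood with Cd300e at 0.65, and its r with Cd300ld was 0.14. These values share library, depth and 10 points and are descriptive. Pairs of genes outside the family were not counted in the same way, so no trait particular to the family is read from them.

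The genes with the most similar pattern were ranked by the same measure among those with a mean of at least 1 FPKM. For Cd300ld4 they were Rab20 (r = 0.94), a small GTPase, Traj30 (0.87), Igkv4-74 (0.86), Mgat2 (0.86) and Igkv8-16 (0.85). For Cd300c2 they were Lst1 (0.95), Pts, Trim12c, Uap1l1 and Tbc1d9 (0.94 each). For Cd300a they were Slc7a8 (0.96), Sdc3 (0.95), Rims3 (0.93), Lgmn (0.92) and Gm28370 (0.92). For Cd300e they were Vcam1 (0.95), Fcna (0.95), Ttyh2 (0.94), Pparg (0.93) and Fabp5 (0.93). The ranking covered 13422 genes for Cd300ld4 and 13421 for each of the others, over 10 libraries. These r are therefore extremes picked from many genes and are descriptive. Cd300ld4 had no read in WT replicates 65, 67 and 73, so its r rest on low counts.

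The difference of Cd300ld4 was also set beside those of its neighbours on the chromosome. The 8 members other than Cd300lg span 244 kb with the rest of the array. Within this interval and 500 kb on each side, 46 genes were tested, of which 36 are not Cd300 genes. Their log2 differences lay between -0.72 and 0.85, with a median of 0.01. Cd300c2 and Cd300e, the members next to the array on its 2 sides, were at 0.06 and 0.12.

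**Figure D5:**
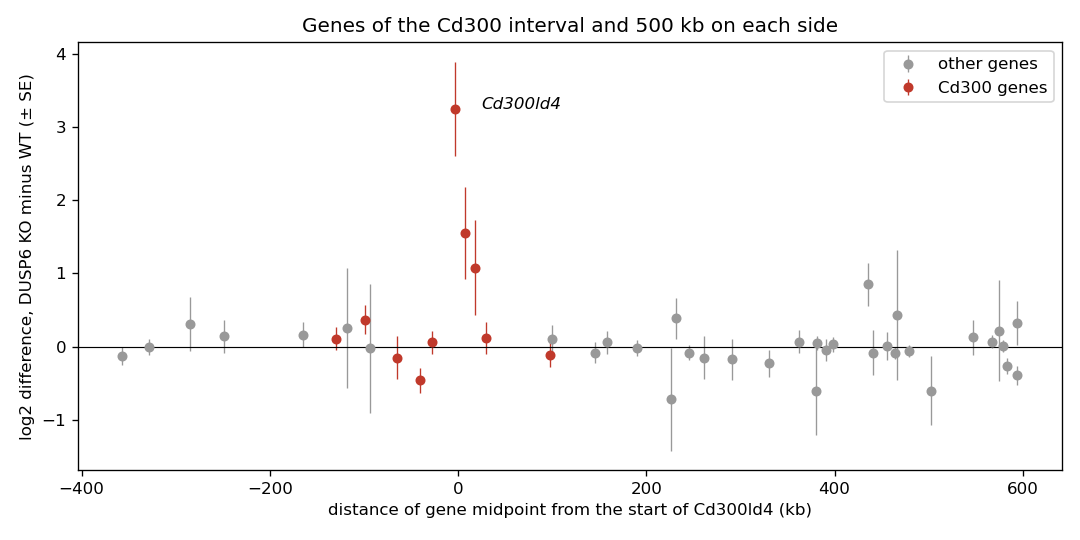
Log2 difference, DUSP6 KO minus WT, with its SE (y axis) of the 46 tested genes of the Cd300 interval and 500 kb on each side, against the distance of the gene's midpoint from the start of Cd300ld4 (x axis, kb). Cd300ld4 stands at 3.25, and the genes other than Cd300 (grey) lie between -0.72 and 0.85.

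Of the 10 signalling partners of the family, 0 passed an unadjusted limma p under 0.05 in either direction (backgrounds 2.62% and 3.03%), and their median log2 difference was -0.08. The adaptor genes Tyrobp (DAP12), at 197 ± 32.1 FPKM (DUSP6 KO) and 204 ± 26.1 FPKM (WT), and Fcer1g (Fc receptor gamma chain), at 179 ± 28.2 and 188 ± 20.2 FPKM, were far more abundant than any member. The adaptor gene Hcst (DAP10) was at 22.9 ± 6.49 and 23.3 ± 7.51 FPKM (SD, n = 5 each for all partners). The phosphatase genes Ptpn6 (SHP-1), Ptpn11 (SHP-2) and Inpp5d (SHIP-1) had log2 differences of -0.16, 0.10 and -0.09. The kinase genes Syk and Lyn had -0.25 and -0.11, and Grb2 and Pik3r1, which code for adaptor and regulatory subunits, had -0.08 and 0.10. Among 5 ligand and co-receptor genes 0 passed, and the largest difference was that of Havcr1 (TIM-1, a ligand of the Cd300lb product), at 0.59. Of 29 other paired receptors of myeloid cells, Treml4 was higher (0.47) and Clec4a2 lower (-0.40) at an unadjusted limma p under 0.05, and the median was -0.16.

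Markers of the cells that carry these receptors differed between the genotypes in several lists at an unadjusted limma p under 0.05, with 0 genes of any list passing after adjustment. At that limma p, 2.62% of all genes tested were higher and 3.03% lower in DUSP6 KO. Among 12 neutrophil markers 7 were lower in DUSP6 KO and 0 higher, for example S100a9 (log2 difference -1.14) and Lcn2 (-1.25). The log2 differences of the list ranged from -1.25 to -0.15. The summed level of the 12 was 590 to 2003 FPKM in DUSP6 KO against 1173 to 4944 FPKM in WT. By flow cytometry of spleen, the study found no significant difference in the number of CD11b+Gr1+ myeloid cells. Among 7 classical monocyte markers 5 were lower, with Vcan at -1.50 and F13a1 at -1.11, and the sums were 67.1 to 135 and 109 to 285 FPKM. Among 8 mast cell and basophil markers 4 were lower, with Prss34 at -2.13, and the sums were 7.83 to 13.3 and 19.9 to 47.7 FPKM, without overlap. WT replicate 77 set the top of these WT ranges, and the next WT sums were 2326 FPKM for neutrophil, 154 FPKM for classical monocyte and 27.1 FPKM for mast cell and basophil markers. Non-classical monocyte markers went the other way, with 4 of 7 higher, among them Ace (0.91) and Cx3cr1 (0.51), and sums of 201 to 266 and 184 to 196 FPKM that did not overlap. Of 5 marginal zone macrophage markers Marco (0.72) and Cd209b (0.89) were higher, while Cd5l, which did not pass, was at -0.50, and the sums overlapped at 167 to 292 and 165 to 197 FPKM. Of 9 red pulp macrophage markers Adgre1 (0.38) and Cd163 (0.39) were higher, while the median of the list was 0.07. The sums of that list overlapped, at 1137 to 1747 FPKM in DUSP6 KO and 1236 to 1511 FPKM in WT. No marker of any list was at 0 in all libraries. The part of these cells in the differences of Cd300ld, Cd300lb and Cd300ld4 was not tested.

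The other lists held few genes past that threshold. Plasmacytoid dendritic cell markers had 1 of 6 higher (Siglech, 0.34) and endothelial markers 1 of 10 higher (Stab2, 0.30). Only 2 of the 6 plasmacytoid markers had a log2 difference above 0, and the median of that list was -0.03. Eosinophil markers had 1 of 5 lower (Il5ra, -0.72) and natural killer cell markers 1 of 6 lower (Klra8, -1.12). Markers of conventional dendritic cells (8 genes), B cells (7), T cells (7), erythroid cells (6) and exocrine pancreas (7) had 0. Their median log2 differences were 0.02, -0.18, -0.01, 0.27 and -4.49, and the pancreas sums were highest in WT replicates 67 and 65.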

How the data were processed

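Spleen RNA of 5 DUSP6 KO mice and 5 WT mice was sequenced in 10 libraries. Per the labels, reads were counted with featureCounts 1.5.0-p3, and per the methods they were aligned with Hisat2. The labels name a human genome build (hg38), but gene identifiers are murine and 53462 of the 54409 genes found in GENCODE release M21 (GRCm38) have identical coordinates there (98.3%), all 12 Cd300 genes included. Strand setting and the treatment of reads fitting several genes are not given in the sources used here. The authors deposited FPKM values and gene lengths for 54532 genes. FPKM times length was a whole multiple of a library's step in 100% of values (tolerance 0.001 reads), which gave reads and depth.

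The test was limma 3.58.1 (R 4.3.3, eBayes with trend) on log2(FPKM + 0.1), applied to 21296 genes whose mean reached 0.1 FPKM, and p-values were adjusted by Benjamini-Hochberg (threshold 0.05). It replaces the count test of the study, as FPKM was the deposited unit and reads were recovered from it. The 2 tests differ in their calls, since the study listed Cd300ld4 as significant after adjustment and limma did not. The same holds outside the family. Marco and Cd209b, also listed as significant by the study, had limma adjusted p of 0.343 and 0.363. The 0 calls among the members are thus those of the limma test, which called few genes. The script was tested on simulated data. The labels do not say whether mice shared a cage or batch, and p-values measure the spread between these mice. Transcripts were matched with blastn 2.17.0, and the stretches before the gene starts were aligned with mafft 7.526. The transcripts of Cd300ld4, Cd300ld5 and Cd300ld3, equal in length, were compared base by base.

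The members, the 18 gene lists and the alternatives were chosen with earlier results of these data known. Genes named are the 9 members, the other Cd300 genes, Dusp6, 10 signalling partners, the 5 genes most correlated with Cd300ld4 and with the 3 most abundant members, and at most 4 genes of lowest p in every other list. Single neighbouring genes outside the family are not reported here. Alternatives were other pseudocounts and filters, eBayes without trend, voom, quantile normalization, median centring, summed copies and leaving out each library.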

Additional observations from a re-analysis of the deposited data

Results flagged for a closer look

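Values of 5 libraries were examined for a library far from the others in 28 groups, 1 of which had no spread, and 2 were picked out by Dixon's criterion at 0.71 of the range. Chance picks out about 1 in 20 such groups. Cd300ld3 was at 5.607 FPKM in DUSP6 KO replicate 73, and the next highest DUSP6 KO library was at 1.026 FPKM, a gap of 0.858 of the range. In the same library Cd300ld4 was at 2.16 FPKM, within the range of the other DUSP6 KO spleens. The total of WT replicate 67 was 18422147 reads, and the next highest WT library had 16348136 reads, a gap of 0.738 of the range.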

How the results depend on the processing

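The 9 members kept 0 calls at an adjusted limma p of 0.05 or less under every alternative run, on the contrast on which the family was picked. Of 161 member values under alternatives, 159 moved by less than the spread between libraries and 2 by more, those of Cd300ld4 with a pseudocount of 1 (1.25) and of 0.01 (5.31). In 4 of them the sign turned, for Cd300c, Cd300c2 and Cd300e, each on leaving out a library. Leaving out 1 of 5 libraries cannot move a difference by as much as that spread. Other filters and eBayes without trend do not change the difference of a member that stays in. The count of 159 is therefore largely fixed by the settings and is no measure of robustness. With a minimum mean of 1 FPKM, Cd300ld4 dropped out, which left 1 member at an unadjusted p under 0.05 in place of 2. With the copies summed, the log2 difference of 3.25 became 2.17, and with each library left out it was 1.77 (without DUSP6 KO replicate 73) to 2.65 (without DUSP6 KO replicate 01), and 2.12 without DUSP6 KO replicate 26, 1.98 without DUSP6 KO replicate 21 and 1.93 without WT replicate 67. Over all genes, 8 were higher and 7 lower after adjustment. A minimum mean of 1 FPKM gave 4 lower, and leaving out each library gave 6 to 21 higher and 4 to 13 lower, with 21 and 13 without DUSP6 KO replicate 21 and 4 lower without WT replicate 83. The causes were not tested. No paired analysis was possible because the groups share 1 replicate number (73) and the labels tie no DUSP6 KO mouse to a WT mouse. Depth limits Cd300ld4 and its copies most, at 0 to 70 reads per gene and library.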

Other observations

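The ratio of Cd300lb to Cd300ld was computed after their opposite differences had been seen, and is given as values. It was 1.16, 1.13, 0.87, 0.844 and 0.82 in DUSP6 KO replicates 26, 21, 73, 01 and 03, and 0.433, 0.659, 0.518, 0.623 and 0.452 in WT replicates 65, 67, 73, 77 and 83. The means were 0.965 ± 0.166 and 0.537 ± 0.101 (SD, n = 5 each). The pair was chosen for the opposite signs, so a separation of the groups was built into the choice and nothing is read from it.

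The best match of a member in another Cd300 gene varied in length and identity. Cd300c matched Cd300c2 over 697 bases at 84.2% identity, Cd300ld matched Cd300ld5 over 856 bases at 82.8%, and Cd300lb matched Cd300ld3 over 362 bases at 66%. Cd300a shared 364 bases at 94% with Cd300c2, and Cd300lf 348 bases at 94.8% with Cd300ld. For Cd300lg no match was found.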
